A study of Mus musculus with 2 samples.

Results

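The genes described here mark alveolar type I cells, the thin squamous cells of the gas-exchange surface. They were fixed as a list of 10 symbols. Their probes were those of the array with a listed symbol, or a synonym of it, in the scanner file. Probes with that current symbol for the transcript named there were also taken. All 10 genes were on the array, among 27597 genes, with 17 of 41174 probes. All 10 were well above background, the scanner software's detection call, in both channels on at least 1 probe. Of them, Ager, Hopx, Aqp5, Emp2 and Akap5 had 1 probe each, Pdpn, Cav1 and Gprc5a had 2, and Clic5 and Rtkn2 had 3. Hopx, Akap5 and Rtkn2 stand in the file under the older names Hod, 3526401B18Rik and Plekhk1. The Hopx probe was named by its transcript accession, and the Akap5 probe and all 3 Rtkn2 probes by synonym. The 10 genes were chosen with earlier results of this array known.

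The study set 1 homozygous Foxj1 -/- embryo against 1 heterozygous Foxj1 +/- litter mate. Both were male Foxj1lacZ carriers of Sv129/CD-1 hybrid background at embryonic stage E16.5, and no treatment is named in the labels. No wild-type lung was used here, so both lungs carried the mutant allele. The allele is constitutive, no cell type was sorted, and whole lobes without extralobular tissue were profiled, although the source names speak of epithelium. Homozygous RNA was labelled with Cy5 and heterozygous RNA with Cy3, and both were read on 1 two-colour array with no dye swap, so genotype, embryo and dye cannot be told apart. No value here has a replicate, no test was run, and the number of arrays, 1, limits the precision. Every ratio below is log2 of homozygous over heterozygous after background correction and loess (a curve fitted through ratio against brightness to remove the dye effect). Each ratio carries after ± the error that the scanner software gave its own ratio of the same spots, on the log2 scale. That error was not computed for the loess ratio and leaves out the difference between embryos. Different probes of 1 gene differed with an SD of 0.26 in log2 ratio over 6275 genes.

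In late gestation the distal lung epithelium turns from branching tips into flat type I cells and surfactant-making type II cells. Type I cells cover most of the alveolar surface, lie against the capillaries and are known for water transport, caveolae and a thin, extended membrane. Several of their marker genes are not restricted to them. Caveolin is abundant in endothelium, podoplanin in lymphatic vessels and mesothelium, and Hopx in heart muscle. In RNA from whole lobes, fewer cells of a type and less RNA per cell cannot be told apart.

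The lower values rest on a few probes, so the middle 30 of the 60 bases of each (positions 16 to 45, 5′ to 3′) are shown here, for the 5 genes read by 1 probe each and for the 3 probes of Clic5, which differed from each other. Positions are those of the array's own annotation on mm8, with no gene model of that build at hand to name exon or intron, and no letters are set in capitals.
Ager (chr17:34206826-34206987, + strand): ccctaataaggtggggacatgtgtgtctga
Hopx (chr5:78162210-78162269, - strand): aaagatgatgtgggaaccgtcttcgtttgc
Aqp5 (chr15:99422734-99422792, + strand): ggttcgtcgagtgccatcttatttattttc
Emp2 (chr16:10195454-10195513, - strand): aagcaagtattaggaccaaaacctgttact
Akap5 (chr12:77252834-77252893, + strand): tttgtatcctcattgaaattagtactactg
Clic5 probe 1 (chr17:43714472-43714531, + strand): atcctccagaaacgaccccagctagtgctc
Clic5 probe 2 (chr17:43740672-43740731, + strand): acatcacaatatttaggcaatgttggatgc
Clic5 probe 3 (chr17:43743085-43743144, + strand): gtaccacgcctttgactacataccaagtca

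The Ager probe covers 162 bases of genome with 60 bases of sequence, so its bases are not contiguous there. GC content of the 8 probes shown ran from 35% for Clic5 probe 2 to 55% for Ager.

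Of the 10 genes 9 had a ratio below 0, against 50.4% of all 21171 detected genes, but their sizes differed. Clic5, Akap5, Hopx, Ager, Aqp5, Emp2 and Gprc5a were lower in the homozygous lung, with ratios from −1.12 to −0.58, while Cav1, Pdpn and Rtkn2 lay between −0.03 and 0.20. A log2 ratio of −0.5 or less was found in 7 of the 10 genes and in 7.83% of all detected genes, and a ratio within 0.25 of 0 in 3 of the 10 and in 66.5% of all genes. At least 1.5-fold lower were 6 of the 10 genes, against 5.87% of all genes, with Gprc5a just short at 1.495-fold. At least 2-fold lower were 2, Clic5 and Akap5, against 1.88% of all genes, and none of the 10 was 2-fold higher, against 0.576% of all genes. The median ratio was −0.82 for the 10 genes and −0.0027 for all detected genes.

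**Figure D1:**
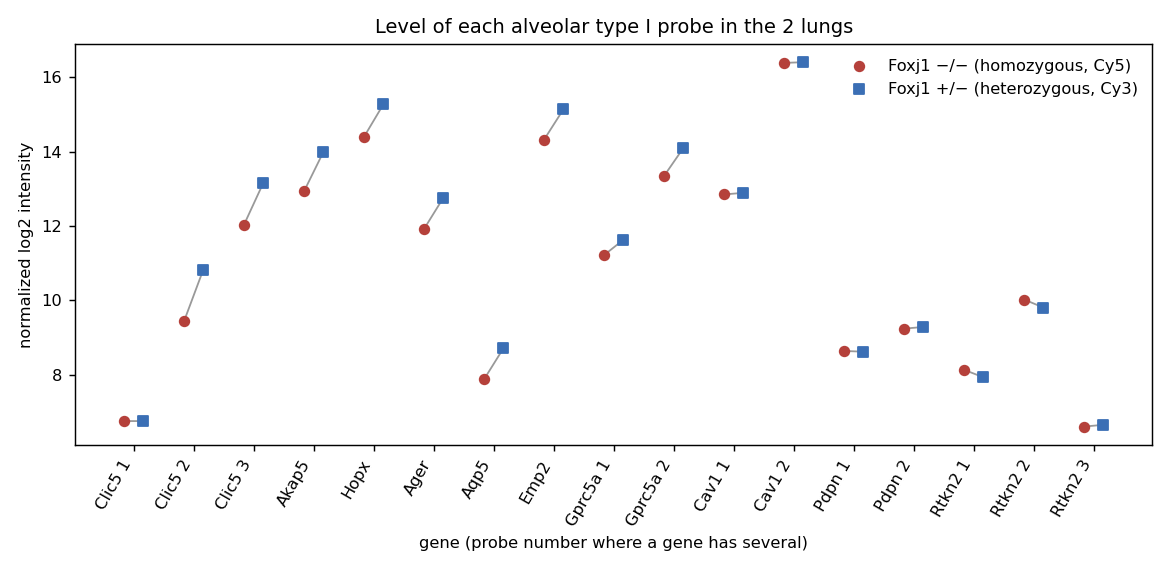
Normalized log2 intensity (vertical axis) of each of the 17 probes of the 10 alveolar type I genes (horizontal axis) in the homozygous lung (red circles) and the heterozygous lung (blue squares), 1 lung each. The circle lies below the square for Akap5, Hopx, Ager, Aqp5, Emp2, both probes of Gprc5a and 2 of the 3 probes of Clic5, and the pair is nearly level for Cav1 and Pdpn.

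Among genes of the cell surface and its fluid, the water channel and the receptor were both lower. Aqp5, the aquaporin of the apical type I membrane, stood at a log2 level of 7.88 in the homozygous lung and 8.71 in the heterozygous lung, a ratio of −0.83 ± 0.23 (1.77-fold lower). It was dim, with processed intensities of 117.4 in the homozygous and 235.6 in the heterozygous channel, so the offset of 50 used in background correction pulls its ratio towards 0. The ratio was −0.98 with an offset of 0 and −1.01 by the scanner software. Ager, the receptor for advanced glycation end products and one of the most abundant type I transcripts of adult lung, had levels of 11.92 in the homozygous lung and 12.76 in the heterozygous lung. Its ratio was −0.83 ± 0.22 (1.78-fold lower), and 3.0% of all detected genes had a ratio as low or lower.

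Podoplanin was near level. Pdpn encodes T1-alpha, the mucin-like glycoprotein that is the classical type I surface marker and binds ezrin and moesin inside the cell. Its 2 probes had levels of 8.64 and 9.24 in the homozygous lung, against 8.62 and 9.29 in the heterozygous lung. Their ratios of 0.02 ± 0.21 and −0.04 ± 0.21 straddled 0, with a gene median of −0.01. The file places 1 of these probes on 19 bases of genome and the other on 60, and both gave nearly the same ratio. The sign of the gene was not stable, since it was above 0 in 5 of 11 other settings and below 0 in 6.

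The tetraspan protein and the orphan receptor were lower by unlike amounts. Emp2, an epithelial membrane protein that shapes lipid rafts, had levels of 14.33 in the homozygous lung and 15.13 in the heterozygous lung. Its ratio was −0.81 ± 0.22 (1.75-fold lower). Gprc5a, a retinoic acid-induced orphan receptor and lung tumour suppressor of the mouse, was measured by 2 neighbouring probes, at chr6:135050177-135050236 and chr6:135050265-135050324. The first had levels of 11.22 in the homozygous lung and 11.63 in the heterozygous lung, a ratio of −0.41 ± 0.21. The second had levels of 13.35 in the homozygous lung and 14.10 in the heterozygous lung, a ratio of −0.75 ± 0.21. Both probes were lower in the homozygous lung.

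The scaffolds of the type I cell held the lowest ratios of the 10 genes. Akap5, which tethers protein kinase A and calcineurin to the membrane, had levels of 12.94 in the homozygous lung and 13.99 in the heterozygous lung, a ratio of −1.05 ± 0.22 (2.07-fold lower). Its only probe stands in the file as 3526401B18Rik and was tied to Akap5 by a synonym, not by a transcript accession. Of the genes of like brightness, within 0.5 log2 units of the mean level of Akap5, 0.62% had a ratio as low or lower. That share was the smallest of the 10 genes. For the other lower genes it ran from 1.51% for Hopx to 5.32% for Aqp5. Clic5, a chloride intracellular channel protein bound to ezrin and the cortical actin, differed among its probes. Probe 3 stood at 12.04 in the homozygous lung and 13.16 in the heterozygous lung, a ratio of −1.12 ± 0.23. Probe 2 stood at 9.44 in the homozygous and 10.83 in the heterozygous lung, a ratio of −1.38 ± 0.24. Probe 1 gave 0.00 ± 0.38, at a level of 6.76 in both lungs. That probe was made from a cDNA clone of neonatal thymus and was barely above background, with background-subtracted intensities of 41.0 in the homozygous and 33.8 in the heterozygous channel. The gene median of −1.12 rests on probe 3, and with the mean of all 3 probes it was −0.83, no longer 2-fold.

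Cav1 and Rtkn2 stayed near their heterozygous levels. Cav1, the coat protein of caveolae, had levels of 12.85 and 16.39 on its 2 probes in the homozygous lung and of 12.89 and 16.40 in the heterozygous lung. Both ratios, −0.04 ± 0.20 and −0.02 ± 0.21, were smaller in size than the scanner error set beside them. The second probe (chr6:17291169-17291228) was in the range of brightness where the channels diverged most, and the scanner software's own ratio was −0.36 for it and −0.0003 for the first (chr6:17289197-17289256). The value of −0.36 is larger in size than its error of 0.21. Rtkn2, a rhotekin that marks type I cells, had levels of 8.13 and 10.02 in the homozygous lung, against 7.93 and 9.81 in the heterozygous lung, on probes 1 and 2. Those ratios were 0.20 ± 0.22 and 0.22 ± 0.21. Probe 3 was detected in the homozygous channel alone and stood at −0.05 ± 0.51, so no fold is given for it.

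Hopx, a homeodomain protein without DNA binding that is switched on as type I cells form, was the transcription cofactor of the list. It had levels of 14.40 in the homozygous lung and 15.27 in the heterozygous lung, a ratio of −0.87 ± 0.22 (1.82-fold lower). Hopx is also a heart muscle gene, and heart muscle transcripts differed between the 2 lungs. All 10 genes of the cardiac and striated muscle list were detected and below 0, with mean log2 levels of 8.60 in the homozygous and 10.12 in the heterozygous lung, and 6 were at least 2-fold lower. Myl7, the atrial myosin light chain, led them at −3.52 ± 0.39, followed by Csrp3, the muscle LIM protein, at −2.79 ± 0.37 and Tnni3, cardiac troponin I, at −2.74 ± 0.39. With median centring the list's median, −1.47 before, was −1.17, with 9 of 10 genes below 0. Their part in the Hopx ratio was not tested.

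**Figure D2:**
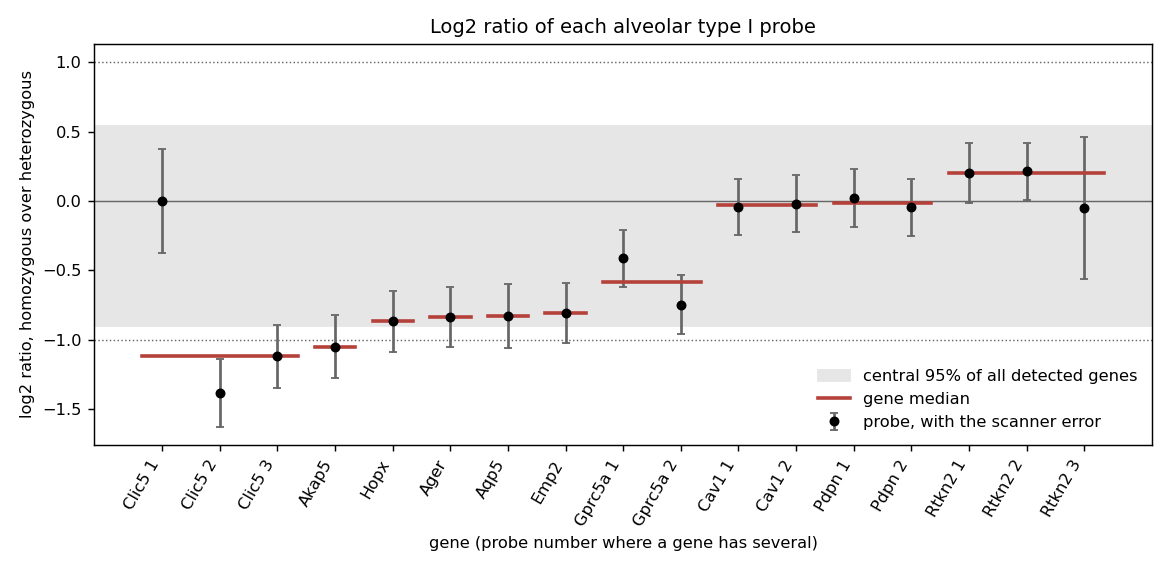
Log2 ratio of homozygous over heterozygous (vertical axis) for each probe of the 10 genes, ordered by gene median, with bars for the scanner error, red lines for the gene median, a grey band for the central 95% of all detected genes and dotted lines at 2-fold. The probes of Akap5 and 2 of 3 probes of Clic5 lie below the band, and Cav1, Pdpn and Rtkn2 lie around 0.

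The dye correction bears on these values. After background subtraction but before dye correction the homozygous, Cy5, channel was the brighter one. Its median excess was 0.93 log2 units over 27786 probes well above background in both channels. This excess grew with brightness, to a median of 1.19 at log2 levels of 14 to 16 and of 1.94 at 16 to 18. Loess removes an excess of this kind, while centring all ratios on their median does not, and the all-gene median was then 0.22. With centring, the median of the 10 genes was −0.04, 6 of them were below 0, against 37.1% of all genes, and none was 2-fold lower. Cav1 then stood at 0.76, Gprc5a at 0.04, Emp2 at −0.02 and Hopx at −0.06. The split over all genes, 398 at least 2-fold lower and 122 higher, became 302 (1.43%) and 724 (3.42%). How low the 7 genes stood therefore depends on that correction. With centring, the median of genes of like brightness, a reading added once the values were known, was 0.14 around Aqp5 and 0.74 around Hopx. Subtracting such a median removes a brightness trend much as loess does, so the result is no separate check of the ratios.

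**Figure D3:**
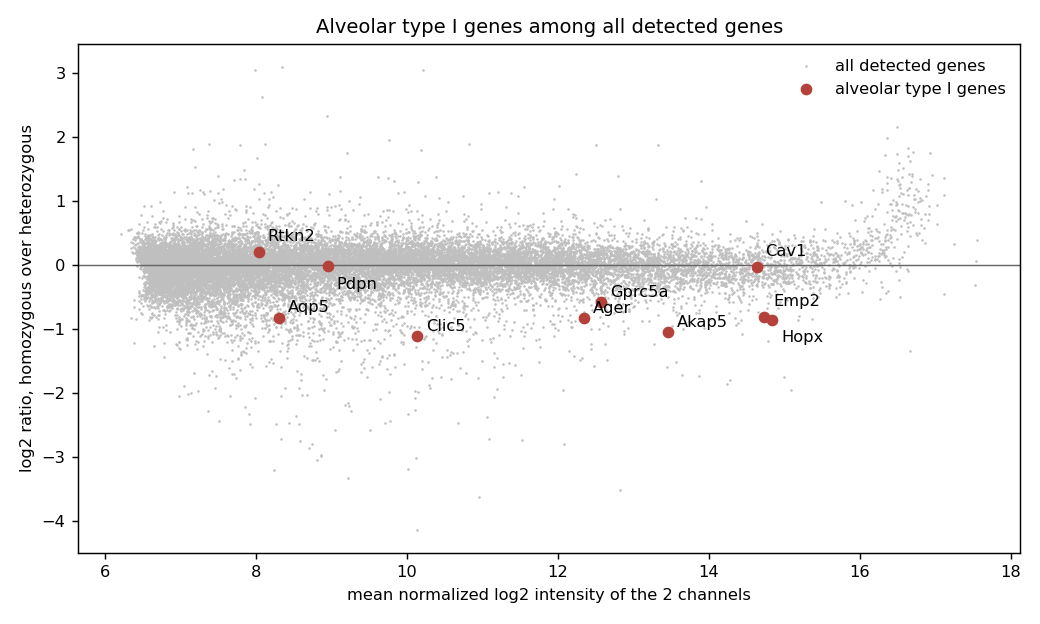
Log2 ratio of homozygous over heterozygous (vertical axis) against mean normalized log2 intensity (horizontal axis) for the 21171 detected genes (grey) and the 10 alveolar type I genes (red, named). Of the 10, 7 lie in the lower part of the cloud at brightnesses from Aqp5 to Hopx, and Rtkn2, Pdpn and Cav1 lie nearer its middle.

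**Figure D4:**
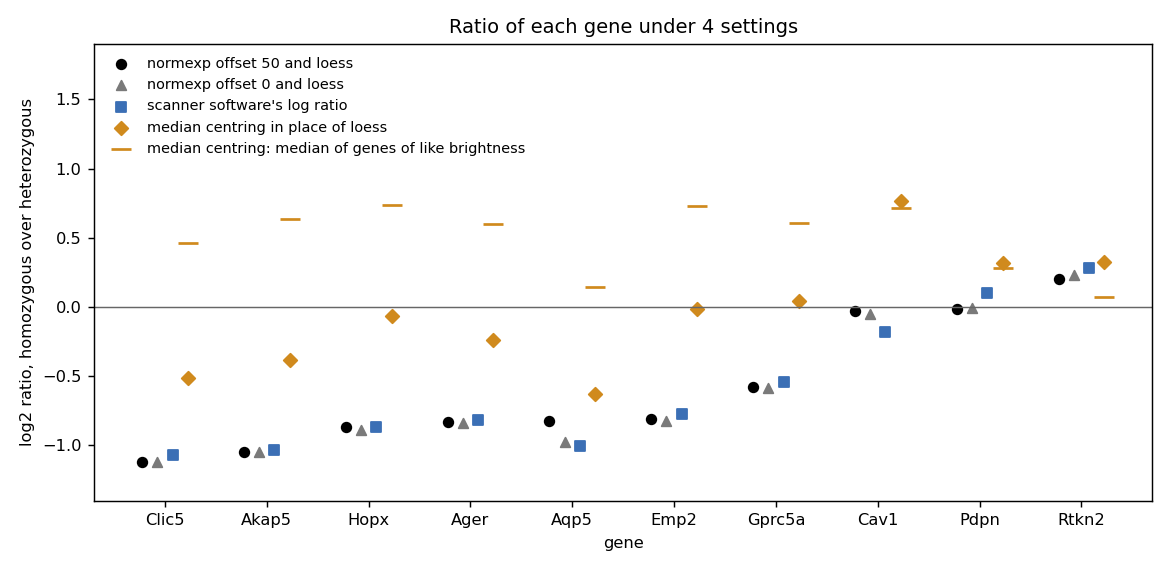
Log2 ratio of homozygous over heterozygous (vertical axis) of each of the 10 genes (horizontal axis) with normexp offset 50 and loess (black), normexp offset 0 (grey), the scanner software (blue) and median centring (orange diamonds), with orange dashes for the median of genes of like brightness under centring. All 10 diamonds lie above the black points, and the dashes show the brightness trend that centring leaves in place, from 0.07 around Rtkn2 to 0.74 around Hopx.

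Relatives of the members ran from −1.38 for Aqp2 to 0.56 for Gprc5b, and 66.5% of all detected genes lay within 0.25 of 0. The lower members were singled out by their ratios, so no contrast with their relatives is drawn. In the CLIC family Clic3 stood at −0.64 ± 0.21, beside −0.23 ± 0.21 for Clic1, −0.06 ± 0.22 for Clic4 and −0.04 ± 0.20 for Clic6. The endothelial and red cell water channel Aqp1 stood at −0.95 ± 0.22 and Aqp2, the vasopressin-regulated channel of the kidney, at −1.38 ± 0.24, whereas Aqp3 (−0.24 ± 0.24), Aqp4 (0.00 ± 0.22), Aqp6 (0.18 ± 0.35), Aqp8 (0.07 ± 0.24) and Aqp11 (0.08 ± 0.21) were closer to 0. Aqp7, Aqp9 and Aqp12 were not above background in either channel. The other caveola genes of whole lung were near Cav1, with Cav2 at −0.14 ± 0.22, Cavin1 at −0.14 ± 0.24, Cavin2 at −0.29 ± 0.21 and Cavin3 at −0.23 ± 0.20. The coat-binding ATPase Ehd2 was at −0.43 ± 0.23 and the membrane-bending Pacsin2 at 0.17 ± 0.21. The muscle forms were lower, Cav3 at −1.12 ± 0.23 and Cavin4 at −0.78 ± 0.24. The other tetraspan relatives of Emp2 were level, at −0.10 ± 0.20 for Emp1, 0.16 ± 0.20 for Emp3 and −0.23 ± 0.21 for Pmp22. Among relatives of Gprc5a, Gprc5b stood highest at 0.56 ± 0.21, with Gprc5c at 0.20 ± 0.21 and Gprc5d at −0.12 ± 0.22. Rtkn, the relative of Rtkn2, was at −0.14 ± 0.20. These signs depend on the dye correction: with median centring Clic3 stood at 0.04, while Aqp1 (−0.29), Aqp2 (−0.86), Cav3 (−0.76) and Cavin4 (−0.69) stayed below 0.

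The 4 lists of partners of the member proteins had medians from −0.22 to −0.07, but single genes were lower. Of 6 detected RAGE ligand genes 5 were below 0, and 2 were at least 1.5-fold lower, against 5.87% of all genes. S100b, a calcium-binding protein of Schwann cells and other cells, was the only one of them at least 2-fold lower at −1.10 ± 0.24. AKAP5 partners ran from −0.40 ± 0.21 for Prkar2b, a regulatory subunit of protein kinase A, to 0.27 ± 0.22 for Prkcb, a protein kinase C, with 6 of 11 below 0. Podoplanin partners ran from −0.98 ± 0.23 for Clec1b, its receptor on platelets, to 0.18 ± 0.21 for Msn, the moesin that links it to actin, with 6 of 7 below 0. HOPX partners ran from −0.71 ± 0.25 for the cardiac homeobox gene Nkx2-5 to 0.35 ± 0.21 for the histone deacetylase Hdac2. With median centring the medians of the 4 partner lists were above 0, from 0.28 to 0.37, while S100b (−0.78), Clec1b (−0.59) and Nkx2-5 (−0.73) stayed below 0.

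Beyond the 10 members, other genes reported for type I cells were mixed. Of 20 such genes 19 were detected, with 13 below 0, 6 above 0 and a median of −0.24, and 3 were at least 1.5-fold lower, 2 of them at least 2-fold. Timp3, an inhibitor of metalloproteinases that mesenchymal cells also make, was at −1.71 ± 0.25, and Sec14l3, a lipid transfer protein of lung epithelium, at −1.18 ± 0.24. Regulators of the type I fate and YAP/TAZ target genes had a median of −0.05, with 9 of 15 below 0. The only one at least 2-fold lower was Ankrd1 (−1.77 ± 0.33), a YAP target that heart muscle also expresses strongly. No test compares these lists with the 10 members, and with median centring the medians of both lists were above 0, at 0.24 and 0.38, with the all-gene median at 0.22.

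**Figure D5:**
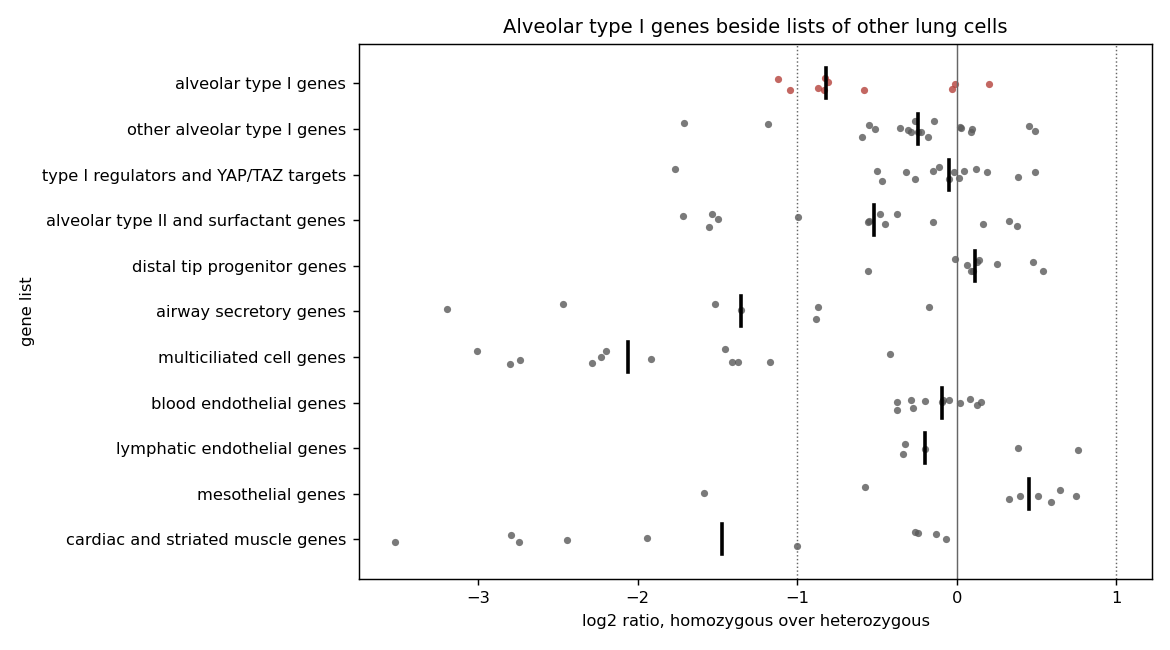
Log2 ratio of homozygous over heterozygous (horizontal axis) of each detected gene in the alveolar type I list (red) and in 10 lists of other genes and cells of the lung (grey), with black bars for the list median and dotted lines at 2-fold. The alveolar type I median of −0.82 lies between those of the alveolar type II list (−0.52) and the airway secretory list (−1.35), and the distal tip and mesothelial medians lie above 0. With median centring, not shown, the type I median (−0.04) no longer lay between the type II (−0.08) and airway secretory (−0.43) medians.

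Other epithelial cells gave a frame for these values. Foxj1 itself, on 1 probe, stood at 7.61 in the homozygous lung and 9.53 in the heterozygous lung (−1.92 ± 0.30). Whether that probe lies in the part removed by the allele was not settled. Multiciliated cell genes, led by Meig1 (−3.01 ± 0.36), Dynlrb2 (−2.80 ± 0.33) and Cfap126 (−2.74 ± 0.33), had a median of −2.06, with 11 of 12 at least 2-fold lower. The median was −1.35 for airway secretory genes, with 4 of 7 at least 2-fold lower, led by Scgb3a1 (−3.19 ± 0.38), Scgb1a1 (−2.47 ± 0.31) and Cyp2f2 (−1.52 ± 0.25). The type II list had a median of −0.52 and 4 of its 14 members at least 2-fold lower. The surfactant genes Sftpb (−1.72 ± 0.26), Sftpd (−1.56 ± 0.26) and Sftpa1 (−1.54 ± 0.25) were its lowest. The surfactant genes did not all go one way, and 3 of the 14 were above 0. Sftpc, the surfactant protein C gene, named here after its value was seen, stood at 17.41 in the homozygous lung and 17.09 in the heterozygous lung (0.33 ± 0.21), but at −0.31 by the scanner software and at 1.39 with median centring. Genes of the distal tip, the progenitors of both alveolar cell types, had a median of 0.11 with 8 of 10 above 0, from −0.56 ± 0.21 for Cpm, a carboxypeptidase, to 0.54 ± 0.21 for Etv4, a target of FGF signalling. With median centring the medians were −1.74 for the multiciliated, −0.43 for the airway secretory, −0.08 for the type II and 0.68 for the tip list.

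Vessel and mesothelial cells that share members with type I cells differed from each other. Blood endothelial genes, the other source of Cav1, had 8 of 12 below 0 and a median of −0.09, with mean log2 levels of 11.81 in the homozygous and 11.92 in the heterozygous lung. They ran from −0.38 ± 0.21 for the VEGF receptor Kdr to 0.15 ± 0.21 for Ramp2. Lymphatic genes, of cells that express Pdpn, ran from −0.34 ± 0.21 for Lyve1, the hyaluronan receptor, to 0.76 ± 0.22 for Mmrn1, a multimerin, with mean levels of 9.21 in the homozygous and 9.15 in the heterozygous lung over 5 detected genes. Mesothelial genes, also of cells with Pdpn, had a median of 0.45 and 6 of 8 above 0, with mean levels of 10.47 in the homozygous and 10.34 in the heterozygous lung. Msln, mesothelin, went the other way at −1.58 ± 0.25. All detected markers of these lists except those named as undetected were well above background in both channels. With median centring the list medians were 0.46 for blood endothelium, 0.29 for lymphatic endothelium, where Lyve1 also turned to 0.29, and 0.85 for mesothelium. Their part in the Cav1 and Pdpn ratios was not tested. Airway secretory and alveolar type II cells, with list medians of −1.35 and −0.52, could also hold or share members. The part of these 2 cell types in the ratios of the members was not tested either.

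The 250 bases before the members' RefSeq starts (GRCm38.p6) were searched on both strands for 4 motifs. These were TGTTTAC of forkhead factors, GGAATG of TEAD factors, CTCAAG of NKX2-1 and the GC box GGGCGG. RefSeq promoters were at hand for 8 of the 10 genes, 10 windows in all. The windows of Clic5, Akap5 and Aqp5 are shown as those of lower genes and that of Pdpn as one of a level gene. Capitals mark any match, and no match overlaps another motif.
Clic5 (chr17:44188322-44188571, + strand): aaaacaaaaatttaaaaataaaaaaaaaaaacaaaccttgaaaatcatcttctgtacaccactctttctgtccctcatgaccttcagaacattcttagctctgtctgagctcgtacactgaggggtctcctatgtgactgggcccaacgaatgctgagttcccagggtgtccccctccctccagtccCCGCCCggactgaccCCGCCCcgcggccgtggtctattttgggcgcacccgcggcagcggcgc
Akap5 (chr12:76324641-76324890, + strand): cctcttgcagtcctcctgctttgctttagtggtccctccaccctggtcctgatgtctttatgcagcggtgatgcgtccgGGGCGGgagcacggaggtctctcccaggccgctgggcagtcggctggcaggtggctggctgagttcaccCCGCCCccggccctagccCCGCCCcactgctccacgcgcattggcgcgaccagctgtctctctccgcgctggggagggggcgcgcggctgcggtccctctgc
Aqp5 (chr15:99590778-99591027, + strand): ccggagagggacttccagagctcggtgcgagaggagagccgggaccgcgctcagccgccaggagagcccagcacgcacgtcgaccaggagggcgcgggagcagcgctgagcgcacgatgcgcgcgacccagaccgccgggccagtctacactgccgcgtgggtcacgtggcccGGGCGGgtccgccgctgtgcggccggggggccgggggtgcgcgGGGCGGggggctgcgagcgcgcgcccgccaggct
Pdpn (chr4:143299565-143299814, - strand): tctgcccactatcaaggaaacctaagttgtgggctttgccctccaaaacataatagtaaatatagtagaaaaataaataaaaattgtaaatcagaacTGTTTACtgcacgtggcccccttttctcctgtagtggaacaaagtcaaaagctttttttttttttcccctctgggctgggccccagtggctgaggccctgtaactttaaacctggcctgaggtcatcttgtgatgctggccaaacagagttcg

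GC boxes stood in 5 of the 10 windows, those of Aqp5, Emp2, Akap5, Clic5 and the first window of Cav1, and in 32.7% of all 32851 promoters. They did not follow the split of the ratios. The windows of the lower genes Ager and Hopx, not shown, held none, while the first window of Cav1, near level, held 1. The forkhead letters were found in the window of Pdpn and in 3.2% of all promoters. The NKX2-1 letters were found in 1 of the 2 windows of Hopx and in 13.3% of all promoters, and the TEAD letters in none of the 10 windows and in 12.6% of all promoters. A match describes letters in these windows only.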

How the data were processed

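The members and gene lists were chosen with earlier results of these data known. Per the labels' protocols, 100 ng of RNA per lung was amplified, labelled and hybridised. The 2 scanner files deposited by the authors are identical and count as 1 array with 2 channels. They hold spot and background intensity on a linear scale and, per the file headers, a processed intensity (background-subtracted and dye-normalized), a log10 ratio of red over green, an error score of that ratio and a p-value, which was not used. The submitters' processing notes name Agilent Feature Extraction 9.5.3.1. The authors' deposited series matrix gives the processed intensity times 1.682 with a floor of 15 (medians 138.83 homozygous, 139.85 heterozygous), as found by comparison with the scanner values. Its centring is that of those values, and the reason for the factor is not given in the sources used here.

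Normexp (offset 50) used mean signals and local median backgrounds, and loess (span 0.3) gave control spots weight 0, in limma 3.58.1 under R 4.3.3. The normalization was tested on simulated data with a dye curve milder than the excess seen on this array. That test therefore does not cover the bright range here. Later steps used Python 3.11.15, numpy 2.4.6, pandas 2.3.3 and matplotlib 3.10.9. Results leave out control spots and 169 spots with an outlier mark, and 0 spots were saturated. Of spots, 75.6% (homozygous) and 69.0% (heterozygous) were well above background. Probes entered if over a 0.5 share of their spots passed that call in either channel, and genes are medians over such probes. Probes were named through their transcript accession (24375 of 41174), symbol (6301) or synonym (2426) in a RefSeq table of GRCm38.p6, and 8072 kept the name of the file. Genes named are the 10 members, their families and, from each other list, up to 3 genes past 2-fold or else the lowest and highest. The alternatives changed offset, background, normalization, probe filter, probe summary, outliers and source of values.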

Additional observations from a re-analysis of the deposited data

How the results depend on the processing

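No paired analysis was possible because each genotype has 1 lung, and no replicate could be left out. Over 11 alternatives the number of the 10 alveolar type I genes at least 2-fold lower was 2 to 3, except for 1 with the mean over probes and 0 with median centring. It was 6 with a 1.5-fold limit. Among all 21171 detected genes the number at least 2-fold lower also changed with the setting. It was 398 in the main setting, 773 with an offset of 0, 1143 by the scanner software and 302 with median centring. The count of 3 of the 10 genes came only from the scanner software's ratio and from the series matrix. The median of the 10 genes lay between −0.83 and −0.78 except with median centring, where it was −0.0396, a setting that by construction keeps the trend of the ratios with brightness. Ager, Hopx, Aqp5, Emp2, Akap5 and Clic5 kept a ratio below 0 in all 11 alternatives and Gprc5a in 10, the exception being 0.04 with median centring. Rtkn2 stayed above 0 in all 11, while Cav1 and Pdpn changed sign between them. Not all 11 are separate checks. For the 5 genes with 1 probe, the changes of probe filter, probe summary and outliers left the ratio as it was. For all 10 genes the series matrix repeats the scanner software's ratio. Signal over background limits Aqp5, Clic5 probe 1 and Rtkn2 probe 3, and 1 array without a dye swap limits every value.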
